A study of Arabidopsis thaliana with 8 samples.

Results

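Photosynthetic electron transfer and ATP synthesis in Arabidopsis plastids were followed here through 10 nuclear genes, taken by their locus codes from the 27628 loci of the deposited tables. They encode the Rieske protein of the cytochrome b6f complex (PETC, AT4G03280), both plastocyanins (PETE1, AT1G76100, and PETE2, AT1G20340), both leaf-type ferredoxins (FD1, AT1G10960, and FD2, AT1G60950), both leaf-type ferredoxin-NADP reductases (FNR1, AT5G66190, and FNR2, AT1G20020), and the gamma, delta and b′ subunits of the plastid ATP synthase (ATPC1, AT4G04640; ATPD, AT4G09650; PDE334, AT4G32260). All 10 were in the tables, with 15 transcripts among them, and all 10 passed the filter on low counts. PDE334 is the annotated symbol of the b′ gene, PETE2 carries the symbol DRT112 in the annotation and FD2 the symbol FED A.

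The RNA came from roots of wild type (WT) and of the hy5 mutant, whose seedlings had stood vertically on solid 0.5x MS medium for 1 week before the roots were cut off. The roots of WT Control and hy5 Control lay in plain liquid MS medium, and those of WT BA and hy5 BA in the same medium with 0.1 uM benzyladenine (BA), a cytokinin. Each of the 4 groups had 2 libraries of polyadenylated RNA. The sources used here do not give the hy5 allele, the light or the length of the treatment.

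In a leaf, electrons leave photosystem II through plastoquinone, pass the cytochrome b6f complex and plastocyanin to photosystem I, and go on through ferredoxin and ferredoxin-NADP reductase to NADPH. The proton gradient built on the way drives the plastid ATP synthase. Roots normally hold plastids without photosynthesis, in which a root-type reductase runs the other way, from NADPH to a root-type ferredoxin, to feed nitrite reduction. HY5 is a transcription factor of the bZIP family that acts in light signalling, and both HY5 and cytokinin are known to promote greening of roots.

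The strongest differences lay between the genotypes, and they were concentrated in PETE2, ATPC1 and PETC. In control medium these genes were 31.8-fold, 19.4-fold and 9.10-fold lower in hy5 than in WT, while FD1 and FD2 were 2.67-fold and 2.38-fold lower and PETE1 and FNR2 did not pass the test. No gene of the 10 passed the test for BA in WT. In hy5 PETE2, ATPC1 and PETC were called higher with BA and stayed below their WT levels. A difference in BA response between the genotypes was called for ATPC1 alone, and several alternative settings given below lost that call.

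The sequences just upstream of 5 of the genes are shown because they set PETE2, ATPC1 and PETC, which differed most, beside PETE1, the plastocyanin gene that did not pass the test, and ATPD, which lay between them. Each is the 250 bases before the annotated start of the gene in RefSeq TAIR10.1, written 5′ to 3′ on the gene's own strand, with matches of the searched motifs in capitals. PETE2 is read from chr1:7043393-7043642, PETE1 from chr1:28554931-28555180 and ATPC1 from chr4:2352026-2352275, all on the minus strand. PETC is read from chr4:1439896-1440145 and ATPD from chr4:6100464-6100713, on the plus strand.
PETE2: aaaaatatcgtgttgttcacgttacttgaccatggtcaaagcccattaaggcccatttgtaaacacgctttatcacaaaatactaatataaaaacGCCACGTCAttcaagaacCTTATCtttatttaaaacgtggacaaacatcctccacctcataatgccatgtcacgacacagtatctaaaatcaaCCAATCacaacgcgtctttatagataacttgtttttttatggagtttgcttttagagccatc
ATPC1: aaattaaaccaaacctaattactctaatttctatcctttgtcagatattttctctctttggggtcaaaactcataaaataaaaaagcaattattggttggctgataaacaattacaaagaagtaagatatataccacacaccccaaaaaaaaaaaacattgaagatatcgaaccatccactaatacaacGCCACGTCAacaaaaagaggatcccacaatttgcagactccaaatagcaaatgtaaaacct
PETC: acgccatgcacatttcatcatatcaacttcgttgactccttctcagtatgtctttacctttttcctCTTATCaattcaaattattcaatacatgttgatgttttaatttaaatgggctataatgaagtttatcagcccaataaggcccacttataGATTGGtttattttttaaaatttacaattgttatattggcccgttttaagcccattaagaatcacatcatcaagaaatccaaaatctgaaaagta
ATPD: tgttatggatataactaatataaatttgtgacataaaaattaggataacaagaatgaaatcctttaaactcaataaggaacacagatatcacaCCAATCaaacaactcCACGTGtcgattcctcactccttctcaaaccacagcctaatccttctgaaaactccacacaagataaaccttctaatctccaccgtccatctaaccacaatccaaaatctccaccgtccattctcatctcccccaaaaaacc
PETE1: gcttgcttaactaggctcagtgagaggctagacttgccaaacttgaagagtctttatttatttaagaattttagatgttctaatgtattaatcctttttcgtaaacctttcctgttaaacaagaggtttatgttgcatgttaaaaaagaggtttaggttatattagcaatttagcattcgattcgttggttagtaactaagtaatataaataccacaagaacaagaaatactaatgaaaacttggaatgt

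The motifs searched on both strands were CACGTG, the G-box that HY5 is known to bind, CCAATC, which holds the CCAAT box, and GATAAG, the I-box of light-regulated genes. CACGTG was found in 1 of the 10 windows, that of ATPD, 142 to 137 bases before its start, and in 6.49% of the windows of 27443 nuclear protein-coding genes. CCAATC was found in 3 of 10 (PETC, PETE2 and ATPD) against 10.2% of all windows, and GATAAG in 4 of 10 (PETC, PETE2, FNR1 and PDE334) against 12.3%. A further word, GCCACGTCA, was picked after the sequences had been seen because PETE2 and ATPC1 share it. It begins 155 bases before the start of PETE2 and 61 bases before that of ATPC1 and occurs in 0.634% of all windows, 174 in number. No matches overlapped each other. The windows of PETE1, FNR2, FD1 and FD2 held none of these words, and of these FD1 and FD2 were called lower in hy5 in both media. A match describes the letters only and was not tested for binding.

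HY5 itself followed the genotype labels, with a level of 38.8 to 42.1 TPM (a transcript abundance scaled for length and library) in the 4 WT libraries and 1.02 to 2.50 TPM in the 4 hy5 libraries. Library totals lay between 29928501 and 35289411 estimated counts. Of the transcripts, 21.6% in hy5 Control 1 and 23.5% in hy5 BA 2 had a fractional estimated count within 0.001 of an integer, against 1.34 to 1.53% elsewhere, so the fits were also made without both. Root markers, 9 genes such as CASP1 and SCR, were detected in every library and summed to 375.2 to 459.2 TPM. The 8 shoot markers, such as AFO (a gene of leaf identity) and the stomatal gene SPCH, summed to 0.958 to 1.32 TPM in WT and 1.13 to 2.03 TPM in hy5, and 1 to 3 of them had 0 counts in each library. The highest sums, 1.66 and 2.03 TPM, were those of hy5 BA, and the stomatal gene TMM was called higher in hy5 with BA (0.85 ± 0.26, adjusted p = 0.0274). Of the root markers RHD6, PLT2, CASP1 and SMB were called higher in hy5 in control medium, with log2 folds of 0.30 to 0.55, while SHV2 was at -0.37 ± 0.14 there (adjusted p = 0.0535) and was called lower with BA (-0.45 ± 0.14, adjusted p = 0.0239). The root markers were not all steady under BA. SCR was called lower with BA among the WT libraries, at -0.38 ± 0.08 (adjusted p = 0.00766). Its fold for hy5 roots, -0.38 ± 0.08, was also called (0.0044). RHD6 was called higher with BA for WT roots (0.42 ± 0.12, adjusted p = 0.0499) but not for hy5 roots (-0.07 ± 0.11, 0.761). The part of either marker list in the results below was not tested. In bulk RNA, fewer cells of a type and less RNA per cell cannot be told apart.

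Levels below are the deposited TPM, which are scaled for transcript length and can be set side by side between genes, given for both libraries of a group. Fold changes are log2 values ± SE from edgeR's quasi-likelihood test on estimated counts, with n = 2 libraries per group, and p-values are adjusted by Benjamini-Hochberg over the 22682 genes tested. A gene is called where the adjusted p is under 0.05. Nothing in the labels says that the libraries within a group are separate cultures, so the p-values cover the spread between these samples alone, which may be technical.

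**Figure D1:**
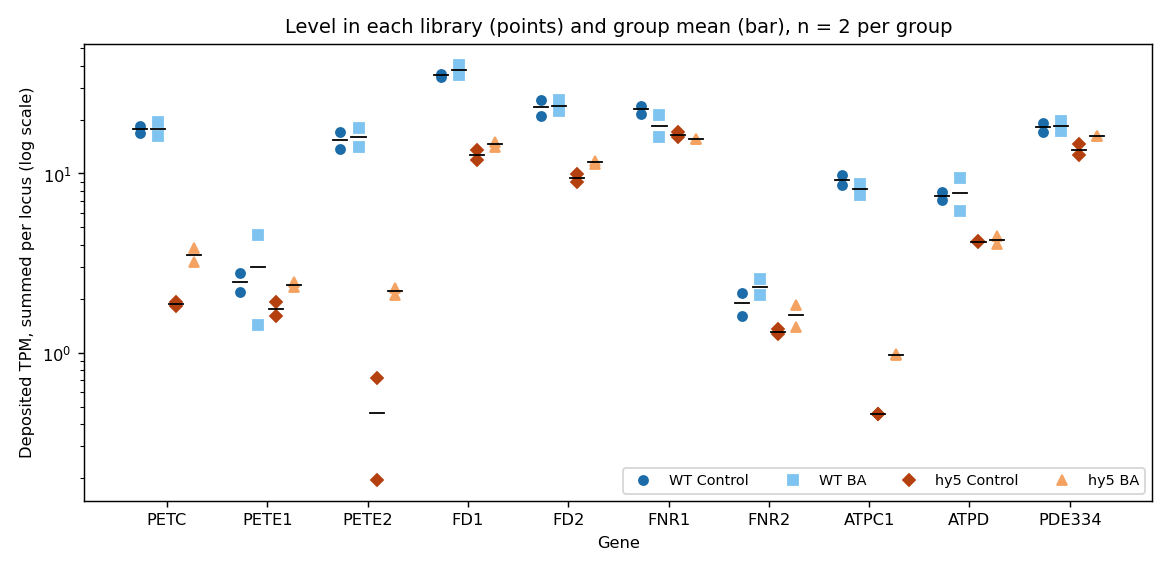
Deposited TPM of each of the 10 genes in each of the 8 libraries, on a log axis, with the group mean as a bar. PETC, PETE2 and ATPC1 lie far lower in the 4 hy5 libraries than in the 4 WT libraries, while PETE1, FNR1 and FNR2 overlap between the genotypes.

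PETC, the Rieske iron-sulfur protein that carries electrons within the cytochrome b6f complex, lies on chromosome 4 from 1440146 to 1441863 on the plus strand, with 4 or 5 exons by transcript. Its level was 16.8 and 18.4 TPM in WT Control, 19.3 and 16.2 TPM in WT BA, 1.82 and 1.91 TPM in hy5 Control; in hy5 BA it was 3.83 and 3.21 TPM. Every hy5 library lay below every WT library. Both hy5 BA libraries lay above both hy5 Control libraries. The same held for PETE1, FNR2, FD1, FD2 and PDE334, which were not called for BA in hy5. FNR1, also not called, went the other way, with both hy5 BA libraries below both hy5 Control libraries. How many of all genes show either separation was not counted. For PETC the log2 fold of hy5 over WT was -3.19 ± 0.14 in control medium (adjusted p = 1.71e-10), while with BA it was -2.30 ± 0.13 (adjusted p = 2.29e-09). The log2 fold of BA over control was 0.93 ± 0.18 in hy5 (adjusted p = 0.00213; 0.0511 without hy5 Control 1 and hy5 BA 2) and 0.05 ± 0.11 in WT. The minor transcript of PETC took 2.26 to 5.49% of the gene's TPM in WT and was listed at 0 in all 4 hy5 libraries.

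PETE2, one of the plastocyanins, the copper proteins that carry electrons from cytochrome b6f to photosystem I, lies on chromosome 1 from 7042046 to 7043392 on the minus strand, in 1 exon. Its level was 13.7 and 16.9 TPM in WT Control and 17.9 and 14.1 TPM in WT BA. In hy5 Control it fell to 0.195 and 0.726 TPM, which rest on 7 and 26 estimated counts, and in hy5 BA it stood at 2.305 and 2.095 TPM, on 91 and 76 counts. All hy5 libraries lay below all WT libraries, and in relative terms the hy5 Control libraries differed from each other more than those of any other group. Relative to WT, hy5 gave PETE2 a log2 fold of -4.99 ± 0.28 in control medium (adjusted p = 1.57e-07), while with BA it was -2.83 ± 0.21 (adjusted p = 2.2e-06). The first of these was -4.33 without hy5 Control 1 and -6.23 without hy5 Control 2, and both runs kept the call.

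PETE1, the other plastocyanin gene, lies on chromosome 1 from 28553883 to 28554930 on the minus strand, also in 1 exon. Its level was 2.79 and 2.20 TPM in WT Control, 4.55 and 1.43 TPM in WT BA, 1.91 and 1.61 TPM in hy5 Control, with 2.47 and 2.32 TPM in hy5 BA. The WT BA libraries were the highest and the lowest of all 8, so the genotypes overlapped. Between hy5 and WT the log2 fold was -0.35 ± 0.38 in control medium (adjusted p = 0.564), while with BA it was -0.28 ± 0.35 (adjusted p = 0.632). With BA the fold was 0.57 without WT BA 1 and -0.82 without WT BA 2, where it was called (adjusted p = 0.022). Its shorter transcript was listed at 0 in WT BA 2 and hy5 Control 2 and took up to 40.0% of the gene's TPM elsewhere.

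Within the plastocyanin pair the order of the genes by TPM was not the same in the genotypes. PETE1 made up 16.9, 11.5, 20.3 and 9.20% of the summed plastocyanin TPM in the 4 WT libraries (WT Control 1 and 2, WT BA 1 and 2). In the hy5 libraries in the same order it made up 90.8, 68.9, 51.7 and 52.5%. By TPM, PETE2 was thus the more abundant plastocyanin in all 4 WT libraries and PETE1 in all 4 hy5 libraries. In hy5 BA the genes were close, at 2.466 and 2.317 TPM for PETE1 against 2.305 and 2.095 TPM for PETE2. The estimated counts there ran the other way, 65 and 55 for PETE1 against 91 and 76 for PETE2. The order in hy5 BA thus depends on the scaling for length. The shorter PETE1 transcript was given 29.5 and 35.8% of the gene's TPM there. The mean log2 ratio of PETE1 to PETE2 was -2.63 ± 0.61 in WT and 1.17 ± 1.5 in hy5 (SD, n = 4 libraries each, both media), a difference of 3.8. The exact two-sided permutation test gave p = 0.0286, the smallest that 4 libraries against 4 allow, and 0.0857 after Benjamini-Hochberg adjustment over the 3 pairs compared.

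FD1 and FD2 are the leaf-type ferredoxins, iron-sulfur proteins that take electrons from photosystem I and hand them to reductases. FD1 (chromosome 1, 3664187 to 3665040, plus strand, 1 exon) had a level of 36.0 and 34.6 TPM in WT Control, 40.4 and 35.6 TPM in WT BA, 13.5 and 12.0 TPM in hy5 Control, with 15.0 and 14.1 TPM in hy5 BA. FD2 (chromosome 1, 22444307 to 22445291, plus strand, 1 exon) had a level of 21.0 and 25.8 TPM in WT Control, 25.6 and 22.2 TPM in WT BA, 8.97 and 9.92 TPM in hy5 Control, with 11.4 and 11.7 TPM in hy5 BA. For both genes every hy5 library lay below every WT library. The log2 fold of hy5 over WT for FD1 was -1.42 ± 0.10 in control medium (adjusted p = 1.28e-08), while with BA it was -1.36 ± 0.09 (adjusted p = 2.29e-08). For FD2 it was -1.25 ± 0.11 (adjusted p = 2.9e-07) and -1.02 ± 0.11 (adjusted p = 2.68e-06). The mean log2 ratio of FD1 to FD2 was 0.64 ± 0.15 in WT and 0.38 ± 0.15 in hy5 (SD, n = 4; exact two-sided permutation p = 0.0571, adjusted 0.0857). FD1 overlaps its neighbour AT1G10950 by 78 bases on the same strand and shares 5.83% of its 31-base words with it, so its counts are uncertain to that extent.

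FNR1 and FNR2, which pass electrons from ferredoxin to NADP, had log2 folds nearer to 0. FNR1 (chromosome 5, 26450964 to 26453199, minus strand, 9 exons) had a level of 23.9 and 21.6 TPM in WT Control, 21.1 and 15.9 TPM in WT BA, 15.9 and 17.1 TPM in hy5 Control, with 15.7 and 15.5 TPM in hy5 BA. Control libraries of the genotypes did not overlap, but WT BA 2 lay within the range of hy5. The log2 fold of hy5 over WT was -0.41 ± 0.10 in control medium (adjusted p = 0.00603), and the call was lost without WT Control 1 (adjusted p = 0.0617), without hy5 Control 1 (0.0751) and when hy5 Control 1 and hy5 BA 2 were both left out (0.113). With BA it was -0.22 ± 0.10 (adjusted p = 0.145), and -0.37 without WT BA 2, where it was called (0.0245). All reads of FNR1 were assigned to 1 of its 2 transcripts, and the other was listed at 0 in every library. FNR1 overlaps AT5G66180 on the opposite strand by 191 bases and shares 10.7% of its 31-base words with it, and the sources used here do not name the libraries' strand setting.

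FNR2 (chromosome 1, 6942625 to 6945091, plus strand, 8 or 9 exons) was the least abundant of the 10 in WT Control by group mean, at 1.61 and 2.17 TPM. It stood at 2.59 and 2.09 TPM in WT BA, 1.27 and 1.35 TPM in hy5 Control, with 1.85 and 1.39 TPM in hy5 BA, so WT Control 1 lay within the range of hy5. Its log2 fold of hy5 over WT was -0.51 ± 0.21 in control medium (adjusted p = 0.0898), while with BA it was -0.47 (adjusted p = 0.106). In control medium it was called without WT Control 1 (-0.72, adjusted p = 0.0391) and with library size only (0.0438). Averaged over both media the fold of -0.49 ± 0.15 was called (adjusted p = 0.0147), but not by DESeq2 (0.0771), without WT Control 2 (0.0798), WT BA 1 (0.0532), hy5 Control 1 (0.0583) or hy5 BA 2 (0.0592), or with hy5 Control 1 and hy5 BA 2 both left out (0.16). The log2 ratio of FNR1 to FNR2 was 3.29 ± 0.43 in WT and 3.47 ± 0.27 in hy5 (SD, n = 4; exact two-sided permutation p = 0.543, adjusted 0.543).

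**Figure D2:**
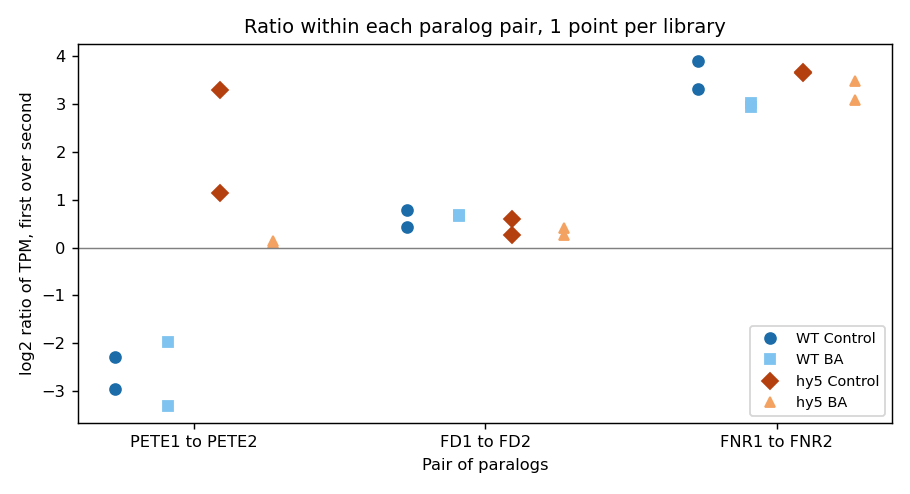
The log2 ratio of TPM within each pair of paralogs, with 1 point for each of the 8 libraries. PETE1 to PETE2 lies below 0 in all 4 WT libraries and above 0 in all 4 hy5 libraries, while the ranges of the genotypes overlap for the other pairs.

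ATPC1 encodes the gamma subunit, the central shaft of the plastid ATP synthase that turns inside its catalytic head. The gene (chromosome 4, 2350498 to 2352025, minus strand, 1 exon) had a level of 8.67 and 9.76 TPM in WT Control, 8.71 and 7.62 TPM in WT BA, 0.454 and 0.456 TPM in hy5 Control, with 0.978 and 0.970 TPM in hy5 BA. All hy5 libraries lay below all WT libraries. The values of hy5 BA lay above those of hy5 Control, as they also did for PETE1, FNR2, FD1, FD2 and PDE334, which were not called. The hy5 Control values rest on 19 estimated counts in each library. In hy5 over WT the log2 fold was -4.28 ± 0.17 in control medium (adjusted p = 2.78e-11), while with BA it was -3.04 ± 0.15 (adjusted p = 3.82e-10).

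ATPD encodes the delta subunit, which links the catalytic head to the outer stalk. The gene (chromosome 4, 6100714 to 6101864, plus strand, 1 exon) had a level of 7.10 and 7.92 TPM in WT Control, 9.49 and 6.14 TPM in WT BA, 4.13 and 4.18 TPM in hy5 Control, with 4.47 and 4.06 TPM in hy5 BA. The genotypes did not overlap. Its log2 fold of hy5 over WT was -0.80 ± 0.16 in control medium (adjusted p = 0.00159), while with BA it was -0.84 ± 0.16 (adjusted p = 0.00113).

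PDE334 encodes the b′ subunit of the outer stalk in the membrane part. The gene (chromosome 4, 15573553 to 15574737, minus strand, 2 exons) had a level of 17.1 and 19.2 TPM in WT Control, 19.5 and 17.2 TPM in WT BA, 14.5 and 12.7 TPM in hy5 Control, with 16.2 and 16.1 TPM in hy5 BA. The hy5 libraries again lay below all WT libraries, by a small margin. The log2 fold of hy5 over WT was -0.36 ± 0.09 in control medium (adjusted p = 0.00978), a call lost without WT Control 2 (adjusted p = 0.0749) and without hy5 Control 2 (0.129), and -0.16 ± 0.09 with BA (adjusted p = 0.242). The nuclear subunits of 1 enzyme thus had log2 folds from -4.28 to -0.36 in the same libraries.

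Counted together, 8 of the 10 genes were called lower in hy5 in control medium, against 11.4% of all genes tested, and none was called higher. The median log2 fold of the 10 was -1.02, and that of all genes tested was -0.001. With BA, 6 of 10 were called lower against 12.4% of all genes, with a median of -0.93 against 0.01. Averaged over the media, 9 of 10 were called lower against 16.8%, PETE1 being the exception; it too was called without WT BA 2 (-0.58, adjusted p = 0.0101). These shares of all genes are those of the main fit. When hy5 Control 1 and hy5 BA 2 were both left out, 1 library stayed in each hy5 group. Fewer of all genes were then called lower in these comparisons. The log2 folds in control medium were then -4.32 (PETE2), -4.26 (ATPC1), -3.14 (PETC), -1.5 (FD1), -1.17 (FD2), -0.78 (ATPD) and -0.45 (PDE334), all called, and those with BA were -3.04 (ATPC1), -2.77 (PETE2), -2.19 (PETC), -1.32 (FD1), -1.05 (FD2) and -0.78 (ATPD), all called. The 4 hy5 libraries lay below the 4 WT libraries on the CPM scale (counts scaled to library size) for 7 of 10 genes (PETC, PETE2, FD1, FD2, ATPC1, ATPD and PDE334), against 13.2% of all genes tested. Summed over the 10 genes, the level was 148.6, 158.5, 169.1 and 138.4 TPM in the WT libraries (WT Control 1 and 2, WT BA 1 and 2) and 62.7, 61.9, 74.1 and 71.5 TPM in the hy5 libraries in the same order.

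**Figure D3:**
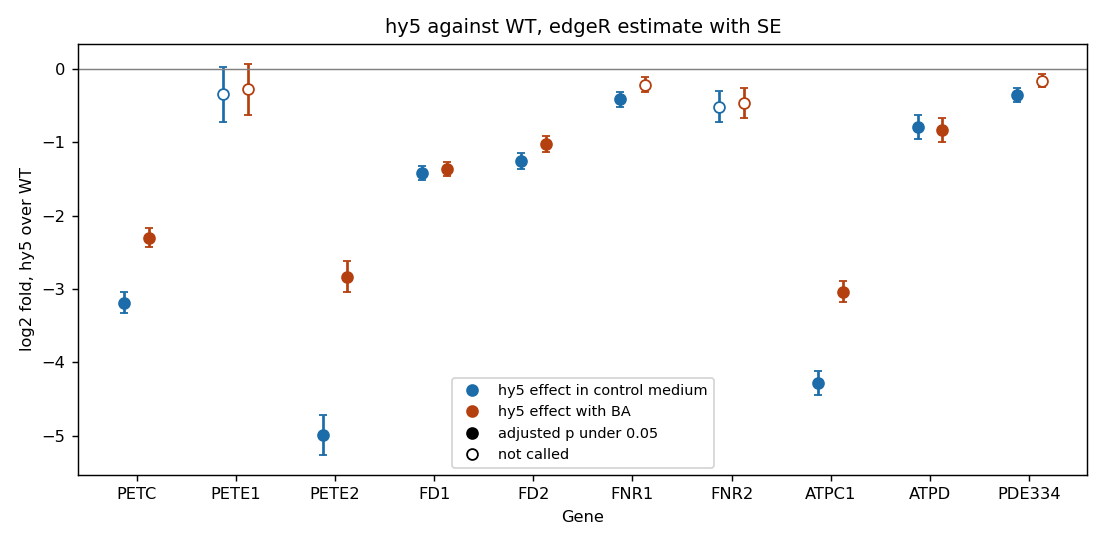
Log2 fold of hy5 over WT for each gene with its SE (edgeR, n = 2 libraries per group), in control medium and with BA; filled points have an adjusted p under 0.05. PETE2, ATPC1 and PETC lie between -4.99 and -2.30, FD1, FD2 and ATPD between -1.42 and -0.80, and the other genes at -0.51 or above.

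The order of the levels changed with the genotype. In WT Control the group means ran, from high to low, FD1, FD2, FNR1, PDE334, PETC, PETE2, ATPC1, ATPD, PETE1 and FNR2, and the libraries of FD2 and FNR1, of PDE334 and PETC, and of PETC and PETE2 overlapped. In WT BA the order was the same, and 5 neighbouring pairs overlapped. In hy5 Control it ran FNR1, PDE334, FD1, FD2, ATPD, PETC, PETE1, FNR2, PETE2 and ATPC1, with overlap between PDE334 and FD1, between PETC and PETE1, and between PETE2 and ATPC1. In hy5 BA PDE334 led, followed by FNR1, FD1, FD2, ATPD, PETC, PETE1, PETE2, FNR2 and ATPC1, and no neighbours overlapped. PETE2 and ATPC1, the sixth and the seventh in WT Control, were the ninth and the tenth in hy5 Control.

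BA was compared with control medium within each genotype. In WT none of the 10 genes was called by edgeR's quasi-likelihood test, where 8.2% of all genes were called in either direction. The log2 folds ranged from -0.26 (FNR1) to 0.28 (PETE1), with a median of 0.08 against 0.01 for all genes tested. FNR1, at -0.26 ± 0.10 (adjusted p = 0.121), was the only gene with an unadjusted p under 0.05, and it was called at -0.44 without WT BA 1 (adjusted p = 0.0242). DESeq2 also called none.

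In hy5, 3 of the 10 genes were called higher with BA, against 3.11% of all genes tested, and none was called lower. PETE2 had the largest log2 fold, 2.27 ± 0.36 (adjusted p = 0.0021), which is 4.81-fold; it was 1.60 without hy5 Control 1, 3.50 without hy5 Control 2 and 1.65 with hy5 Control 1 and hy5 BA 2 both left out, called in each. ATPC1 rose by a log2 fold of 1.11 ± 0.23 (adjusted p = 0.00475), and this call was lost without hy5 Control 1 (0.0508) and when hy5 Control 1 and hy5 BA 2 were both left out (0.151). PETC, given above, rose 1.91-fold. The other 7 genes had log2 folds between -0.07 (FNR1) and 0.35 (PETE1), and the median of the 10 was 0.31 against 0.02 for all genes. Even with BA, PETE2, ATPC1 and PETC were 7.11-fold, 8.21-fold and 4.94-fold lower in hy5 than in WT with BA. Averaged over genotypes, the same 3 genes were called higher with BA, against 6.46% of all genes; the call of ATPC1 there was lost by DESeq2 (0.0589) and without hy5 Control 1 (0.0785), hy5 Control 2 (0.08) or hy5 BA 1 (0.0589), or with hy5 Control 1 and hy5 BA 2 both left out (0.143).

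The comparison of BA with control in hy5 and that of hy5 with WT in control medium have the hy5 Control libraries in common, so a low value there enters both, with opposite signs. The interaction, the log2 fold of BA in hy5 minus the fold in WT, was called for 1 of the 10 genes, against 0.485% of all genes in either direction and 0.0485% called higher. That gene was ATPC1, at 1.24 ± 0.26 (adjusted p = 0.0463). The interaction of PETE2 was 2.16 ± 0.41 (adjusted p = 0.0511) and that of PETC 0.88 ± 0.21 (adjusted p = 0.0706). The other 7 lay between -0.04 (ATPD) and 0.23 (FD2). The call for ATPC1 was lost with RLE size factors (0.0513), with the replicate number as a block (0.0558) and in 7 of the 8 runs that left out 1 library, all but that without WT Control 1. PETE2 was at 3.40 without hy5 Control 2, where it was called (adjusted p = 0.00752), but at 1.5 without hy5 Control 1 (0.126) and 1.55 with hy5 Control 1 and hy5 BA 2 both left out (0.302). It was also called by DESeq2 (0.0377), with no filter (0.0487) and without WT Control 1 (0.0375), where PETC was called too (0.0476).

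**Figure D4:**
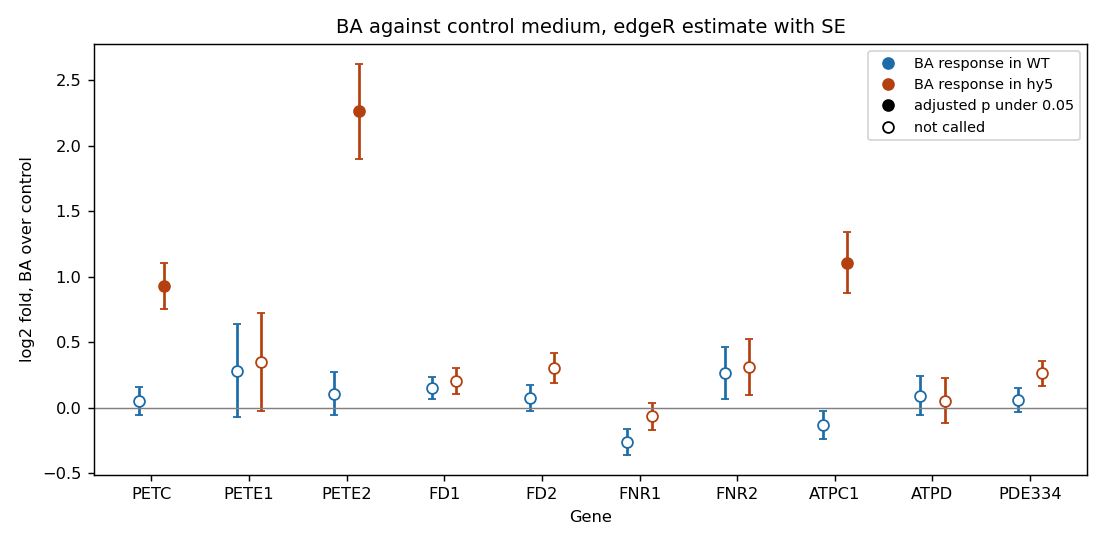
Log2 fold of BA over control medium for each gene with its SE (edgeR, n = 2 libraries per group), in WT and in hy5; filled points have an adjusted p under 0.05. In WT no gene passed the test, and in hy5 PETE2 (2.27), ATPC1 (1.11) and PETC (0.93) passed it.

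Several of the genes have a relative that is typical of roots or shared by other tissues, and FD3, RFNR1, RFNR2 and ATPC2 were not called between the genotypes in control medium. FD3, the root-type ferredoxin, had a mean level of 281.1 TPM in WT Control, 266.3 TPM in WT BA, 302.7 TPM in hy5 Control, with 272.1 TPM in hy5 BA, and its log2 fold of hy5 over WT in control medium was 0.16 ± 0.07 (adjusted p = 0.0994). FD1 and FD2 together made up 17.1 to 19.4% of the TPM of these 3 ferredoxins in the 4 WT libraries and 6.80 to 8.76% in the 4 hy5 libraries, without overlap. FD4, another ferredoxin gene that is outside this share, was higher in hy5, at 4.94 and 4.53 TPM in WT Control and 19.8 and 24.6 TPM in hy5 Control (log2 fold 2.27 ± 0.22, adjusted p = 6.87e-07). The root-type reductases RFNR1 and RFNR2 summed to 183.4 to 226 TPM by group mean and FNR1 and FNR2 to 17.2 to 24.7 TPM. FNR1 and FNR2 made up 7.28 to 12.1% of the TPM of these reductases in the WT libraries and 8.05 to 9.67% in the hy5 libraries, so the genotypes overlapped. RFNR1 was called lower in hy5 with BA, at -0.30 ± 0.09 (adjusted p = 0.0249). For the gamma subunit, the paralog ATPC2 stood at 19.1 to 20.8 TPM by group mean, with a log2 fold of hy5 over WT of -0.06 ± 0.08 in control medium (adjusted p = 0.652). ATPC1 made up 28.9 to 32.5% of the ATPC1 and ATPC2 TPM in WT, 2.28 and 2.35% in hy5 Control, then 5.06 and 4.68% in hy5 BA.

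Other genes of the same processes were counted in control medium as a frame for the 10. In the main fit 11.4% of all genes tested were called lower there, with a median of -0.001. The alternative settings named for these lists also called fewer of all genes lower, for DESeq2 1839 of 22682 against 2593 in the main fit. Of 8 tested nuclear genes of the cytochrome b6f complex and its assembly, 4 were called lower in hy5 (median log2 fold -0.31), but only 1 by DESeq2 and 1 without hy5 Control 2, and 2 without WT Control 1, WT Control 2 or hy5 Control 1. The subunit gene petM (AT2G26500) led them, at 20.1 and 25.2 TPM in WT Control and 2.20 and 3.98 TPM in hy5 Control (log2 fold -2.78 ± 0.22, adjusted p = 1.9e-07). AT1G49380 of the same list was at -0.65 ± 0.19 (adjusted p = 0.0195). The assembly factors CCB4 and CcdA were at -0.50 ± 0.17 (adjusted p = 0.0396) and -0.34 ± 0.11 (adjusted p = 0.0253). Of 9 tested plastid-encoded subunits of both complexes 7 were called lower (median -1.21; 4 without hy5 Control 1 and hy5 BA 2 together), although polyadenylated RNA was selected and plastid transcripts are mostly not polyadenylated. No gene of 6 was called for the ATP synthase paralog and assembly factors (median -0.11).

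Of 9 genes of cyclic and alternative electron flow 4 were called lower in control medium (median -0.23), beside the same 11.4% of all genes in the main fit. TROL, the thylakoid anchor of FNR, was at -1.87 ± 0.11 (adjusted p = 1.89e-09), and PGR5, a factor of cyclic flow, at -0.77 ± 0.17 (adjusted p = 0.00265). The count was 2 by DESeq2, without WT Control 1 and without hy5 Control 2, and 1 without hy5 Control 1. Of 5 tested root-type and other ferredoxin and reductase genes none was called lower and FD4, given above, was called higher. Of 7 ferredoxin-dependent enzymes 2 were called lower, both annotated as glutamate synthases: GLU1 at -1.18 ± 0.20 (adjusted p = 0.000336) and GLU2 at -0.32 ± 0.07 (adjusted p = 0.00417). The mitochondrial ATP synthase had 3 of 9 genes called lower with a median of -0.07 (1 without WT Control 1, 0 without hy5 Control 2). Nuclear photosystem and light-harvesting genes had 31 of 36 called lower with a median of -2.29.

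With BA in hy5, 9 of the 36 photosystem and light-harvesting genes were called higher (median 0.71), but 0 without hy5 Control 1, 1 without hy5 BA 1 or hy5 BA 2, and 15 without hy5 Control 2; with hy5 Control 1 and hy5 BA 2 both left out it was 0. The 9 genes stand beside 3.11% of all genes tested called higher and a median of 0.02, both from the main fit. With libraries left out, fewer of all genes were called higher too, so the counts of those runs are not read against that share. TROL was called higher as well, at 0.41 ± 0.11 (adjusted p = 0.0283), but its list held 0 calls by DESeq2 and without hy5 Control 1, hy5 BA 1 or hy5 BA 2. Of the plastid-encoded subunits ATCG00130 was called higher (0.91 ± 0.28, adjusted p = 0.0457), and that list held 0 calls by DESeq2, with the replicate block and in 7 of the 8 runs that left out 1 library, all but that without hy5 BA 1. FD4 was called lower with BA, at -0.61 ± 0.18 (adjusted p = 0.0354), with 0 calls in its list by DESeq2, with library size only and without hy5 Control 2 or hy5 BA 1. No gene of the cytochrome b6f assembly, ATP synthase assembly, ferredoxin-dependent enzyme or mitochondrial ATP synthase lists was called there. In WT, 1 gene of all these pathway lists was called for BA. It was RFNR2, called higher at 0.27 ± 0.08 with an adjusted p of 0.0482, close to the threshold. Of all 22682 genes tested, 879 were called higher there.

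**Figure D5:**
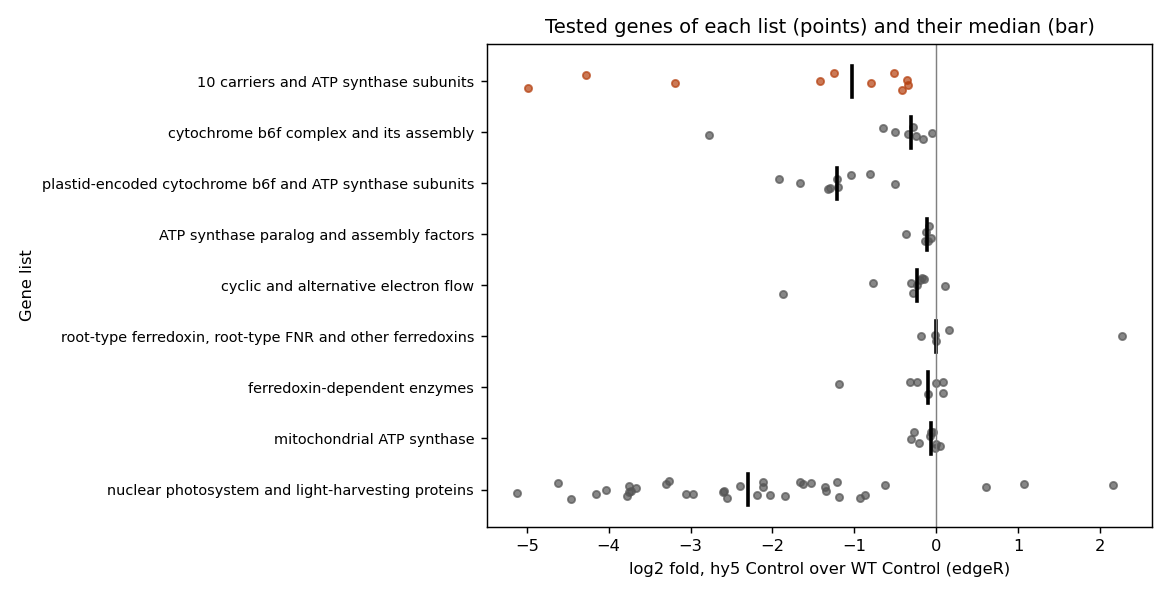
Log2 fold of hy5 Control over WT Control (edgeR) for every tested gene of each list, with the median as a bar. The 10 carriers and ATP synthase subunits spread from -4.99 to -0.35, the mitochondrial ATP synthase genes lie near 0, and the photosystem and light-harvesting genes have a median of -2.29.

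The profile of the 10 genes over the 8 libraries was also set beside every other tested gene, by the root mean square difference of centred log2 CPM from the mean profile of the 10. The 6 nearest were HPR (AT1G68010, a hydroxypyruvate reductase) at 0.0898, ACP4 (AT4G25050, an acyl carrier protein) at 0.110, ATCG00490 at 0.123, TROL at 0.139, GDCH (AT2G35370, the H protein of glycine decarboxylase) at 0.141 and ABCA6 (AT3G47770, an ABC transporter) at 0.142. Among the 10 themselves FD1 lay nearest to their mean, at 0.179, and PETE2 farthest, at 1.43, so other genes followed the mean more closely than any of the 10 did. The points share their libraries, and the likeness is a description.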

How the data were processed

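Polyadenylated RNA of 8 root libraries was measured, 2 in each of 4 groups named by the sample titles. The expected counts and TPM of 48332 transcripts were deposited by the authors, 1 table per library. The submitters' processing notes name Salmon and the build TAIR10; the sources used here do not give its version, options or strand setting. Per the labels' protocols, RNA was selected with oligo-dT and primed at random.

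TPM and estimated counts were summed to loci by the code before the dot, and the estimated counts were rounded to whole numbers. Symbols, positions and promoters came from RefSeq TAIR10.1; 27420 loci and 99.16% of transcript lengths matched. Totals of 29928501 to 35289411 counts limit precision for genes with few counts. Counts were analysed with edgeR 4.0.16 (R 4.3.3): filterByExpr with a minimum count of 10 (0.307 CPM; 22682 genes kept, 4946 removed), TMM, and a robust quasi-likelihood fit of 4 group means over all libraries (common biological coefficient of variation 0.0596). The SE is the fold divided by the square root of F. The fit was tested on simulated data. Paralog ratios were tested by exact permutation of 8 libraries. Libraries of a group differed by more than sampling noise (chi-square per gene 3.90 to 7.94), so none was counted as a copy.

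The 10 genes, the lists, the named-gene rule (all members, up to 4 called genes of a list, the 6 nearest profiles and HY5) and the tests were chosen with earlier results of these data known. Alternatives were RLE scaling, library size only, no filter, DESeq2 1.42.0, a replicate block, each library left out, hy5 Control 1 and hy5 BA 2 left out together, and only the compared groups.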

Additional observations from a re-analysis of the deposited data

Results flagged for a closer look

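The BA response of ATPC1 differed between the genotypes by the interaction test of edgeR, with a difference of 1.24 ± 0.26 on the log2 scale (adjusted p = 0.0463, n = 2 libraries per group). Its level was 9.22 TPM in WT Control and 8.17 TPM in WT BA, and 0.455 TPM in hy5 Control and 0.974 TPM in hy5 BA (group means). Over the alternatives that gave one, the adjusted p ran from 0.0237 without WT Control 1 to 0.687 with hy5 Control 1 and hy5 BA 2 both left out, and the difference from 1.17 to 1.35. DESeq2 gave no adjusted p for it.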

How the results depend on the processing

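Depth limits PETE2 and ATPC1 in hy5 Control and ATPC1 in hy5 BA, where they rest on the fewest counts of the 10 genes. Over all libraries PETE1 and FNR2 had the lowest mean log2 CPM of the 10, 0.87 and 1.17. Over all settings, 850 fold estimates of the 10 genes kept direction and side of the threshold, 29 lost a call, 13 gained one and 26 changed direction. The paralog ratios kept their direction in all 30 recalculations, the replicate block among them, and no stability of their test is read from this. Replicate numbers did not pair the libraries (correlations of deviations from -0.07 to 0.02).

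For the BA response in hy5 the number of called genes was 5 with library size only, which adds FD2 and PDE334, and 1 when hy5 Control 1 and hy5 BA 2 were both left out. For the interaction it was 0 with RLE size factors, 2 with no filter and 0 with the replicate block. Over all genes tested the interaction had 75, 162 and 101 calls in these settings, against 110 in the main fit. Library size only gave FNR1 a log2 fold of 0.016 for BA in hy5 and ATPD an interaction of 0.0641, and leaving out both libraries gave ATPD 0.0004256; the cause was not tested. Library size only moved the median interaction of all genes from -0.01 to 0.10, and it changed the calls over all genes from 706 higher and 1817 lower to 1712 and 1285 for BA in hy5, from 1465 and 2263 to 2219 and 1896 for BA over both genotypes, from 3103 and 2593 to 2303 and 4263 for hy5 in control medium, and from 11 and 99 to 22 and 33 for the interaction.

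Leaving out each library in turn gave 0 to 1 called genes for BA in WT, 0 to 3 for the interaction and 2 to 5 for BA over both genotypes. Log2 folds that changed direction in such runs ranged from -0.041 to 0.13 (PETC), -0.58 to 0.82 (PETE1), -0.0262 to 0.24 (PETE2), -0.046 to 0.20 (FD2), -0.20 to 0.34 (ATPD) and -0.0017 to 0.12 (PDE334) for BA in WT, from -0.0338 to 0.11 for BA in hy5 (ATPD), from -0.82 to 0.57 for hy5 with BA and -0.58 to 0.11 for hy5 over both media (PETE1), and for the interaction from -0.48 to 0.92 (PETE1), -0.19 to 0.26 (FNR2), -0.018 to 0.14 (FD1) and -0.28 to 0.24 (ATPD). DESeq2 gave the interaction of ATPC1 no adjusted p.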
